A study of Nicotiana tabacum with 15 samples.

Results

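The pathogenesis-related genes PR-1 and a TGA transcription factor gene were followed across roots of 2 tobacco F1 hybrids and their 3 parents. The set holds 6 of the 69500 gene models in the deposited table, namely Nitab4.5_0003771g0010, Nitab4.5_0014031g0010, Nitab4.5_0004861g0040, Nitab4.5_0007488g0040 and Nitab4.5_0001477g0080, annotated to PR-1, and Nitab4.5_0004992g0010, annotated to TGA. They are a fixed list of IDs, annotated so in the study's picture of hormone signalling, which collects genes that the study had called overdominant (above or below both parents) in both hybrids. The study therefore chose them from these same libraries for their difference between hybrids and parents. That difference is given below as a description, and its direction in the members is not independent evidence. Where a member is said to be called or to pass in it, this places the values on a side of the study's limits and is no test of the member.

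Seedling root RNA was sequenced in 3 libraries per genotype, without any treatment. GJ is the F1 of the mother G70 (here G), KJ is the F1 of the mother K326 (here K), and the pollen of both crosses came from Jiucaiping No.2 (here J, written JCP in the labels). The labels name the tissue as young root while their titles speak of leaf, and the files pair no ID with a tissue marker against which this could be checked. Levels are FPKM, which scale read numbers by gene length and by the mapped fragments of a library. The methods speak of 3 seedlings of like vigour picked for root measurement and of such samples going to sequencing, without saying whether each library was a separate seedling. Errors and p-values therefore cover only how far these libraries spread, which may be technical.

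Salicylic acid is the plant hormone of defence against pathogens that feed on living tissue. When it accumulates, the coactivator NPR1 enters the nucleus and works with TGA factors, which are bZIP proteins that bind the promoters of defence genes. PR-1 proteins are small secreted proteins, first described in tobacco leaves that resist a virus, and PR-1 transcripts are a common marker of this response. They form a multigene family, and tobacco is an allotetraploid that can carry a copy from each ancestral genome. Reads shared by similar copies are divided between them during quantification, so each PR-1 level below is uncertain by an amount that was not tested.

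Summed over all genes, FPKM came to 801594 to 819228 in hybrid libraries and 818587 to 827438 in parental ones, and read counts per gene were not analysed here, so no counting error can be given. Within their genotypes, G replicate 1 correlated least with its replicates (mean r = 0.920 across genes), and G replicate 1, K replicate 2 and J replicate 2 lay lowest on the first principal component. In GJ replicate 1, 25 genes were listed at 0 that had at least 5 FPKM in both other GJ libraries, while this number was from 0 to 13 in the other libraries, and no member was among them. The median gene lay 0.24 lower in KJ than in its middle parent on the log2 scale and 0.06 lower in GJ. All tests used log2(FPKM + 1) and a single limma fit over the 37232 genes that reached 1 FPKM in 3 or more libraries. A call needed an adjusted p (Benjamini-Hochberg) no higher than 0.05 together with a log2 difference of 1 or more in either direction. All 6 members passed the filter on low values, but 3 of them passed it only through the hybrid libraries.

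By their levels in the parents, the PR-1 genes fell into a scarce and an abundant kind, and both kinds were higher in the hybrids. The name scarce refers to the parents, since Nitab4.5_0003771g0010 reached 65.1 FPKM in KJ and ranked 4312 there by mean FPKM. Nitab4.5_0003771g0010, Nitab4.5_0014031g0010 and Nitab4.5_0004861g0040 were at or near 0 in the roots of all parents, at most 1.22 FPKM, and higher in every hybrid library. The lowest hybrid value was 0.85 FPKM, for Nitab4.5_0004861g0040 in GJ replicate 2. Nitab4.5_0007488g0040 and Nitab4.5_0001477g0080 were already among the more abundant transcripts in the parents and rose further. The TGA gene lay lower in the hybrids. In bulk RNA, a change in the number of cells that express a gene and a change in RNA per cell cannot be told apart.

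**Figure D1:**
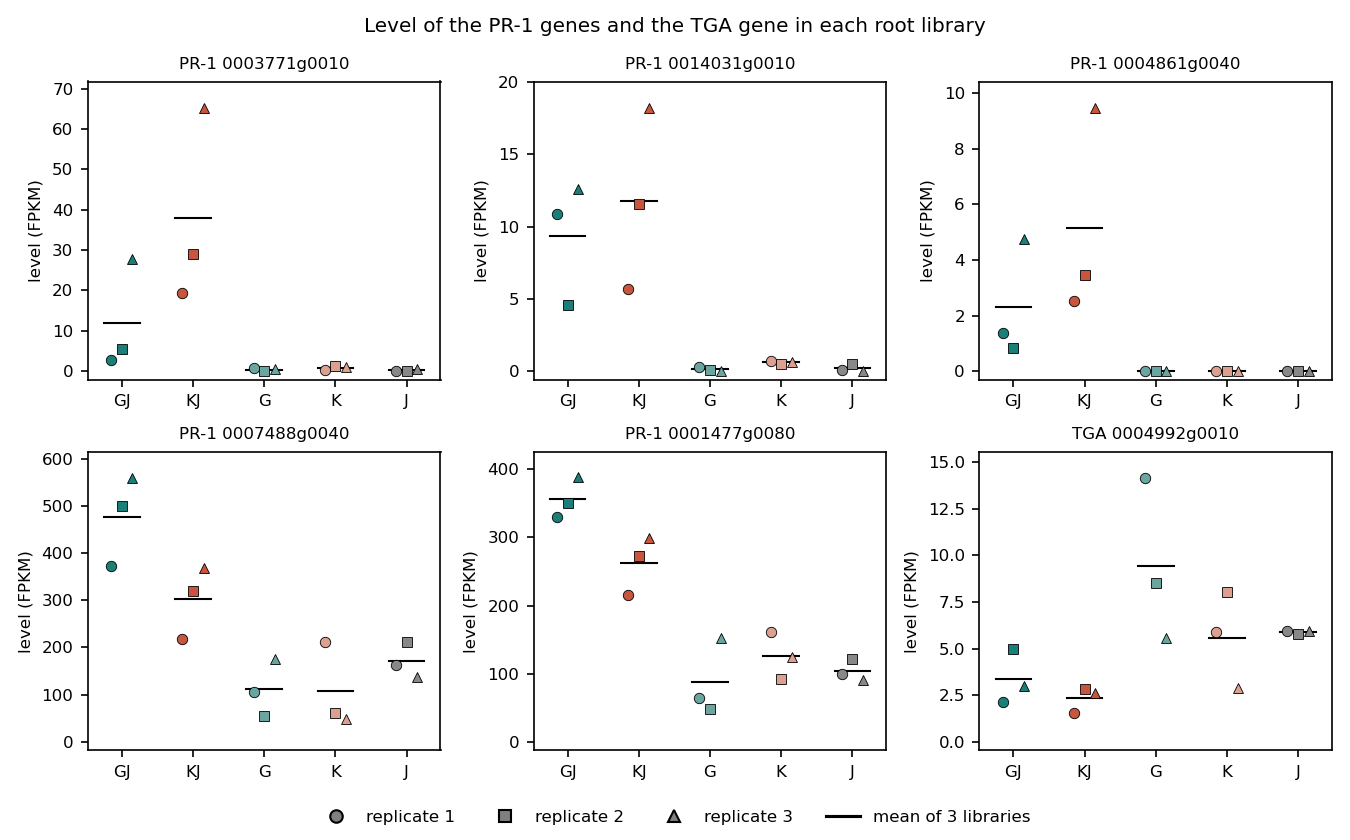
Level in FPKM (vertical axes, a scale for each gene) of the 5 PR-1 genes and the TGA gene in the 15 root libraries, by genotype, with a symbol for each replicate and a line at the mean of 3 libraries. All 6 hybrid libraries lie above all 9 parental libraries for each PR-1 gene, and for TGA the lowest K library, at 2.88 FPKM, lies below 2 GJ libraries.

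Nitab4.5_0003771g0010 had 2.82, 5.46 and 27.9 FPKM in GJ replicates 1 to 3 and 19.5, 29.0 and 65.1 FPKM in KJ replicates 1 to 3, against 0.71, 0 and 0.54 in G, 0.28, 1.22 and 1.12 in K and 0, 0.12 and 0.51 in J. The hybrid libraries did not overlap with any parental library, yet within GJ the highest library stood far above the other two. The mean was 12.1 ± 13.8 FPKM (SD, n = 3, here and for all means of libraries below) in GJ and 37.9 ± 24.1 in KJ, against 0.417 ± 0.371 in G, 0.873 ± 0.516 in K and 0.210 ± 0.267 in J. On the log2(FPKM + 1) scale this was 2.80 ± 0.53 (SE) above the middle parent in GJ and 4.54 ± 0.53 in KJ. The rise in KJ ranked 1 among the 37232 genes tested and that in GJ ranked 24. In the order listed at the start, the other PR-1 genes ranked 36, 120, 996 and 1183 in KJ and 11, 337, 175 and 125 in GJ. The members were chosen for this difference, and this gene passed the filter only through the hybrid libraries. Nothing is therefore read from these ranks.

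Nitab4.5_0014031g0010 had 10.9, 4.57 and 12.6 FPKM in GJ and 5.66, 11.6 and 18.2 FPKM in KJ, against 0.31, 0.10 and 0 in G, 0.68, 0.50 and 0.67 in K and 0.11, 0.50 and 0 in J. Here GJ and KJ covered much the same range, and the 2 highest parental libraries were of K. The mean was 9.35 ± 4.23 FPKM in GJ and 11.8 ± 6.25 in KJ, against 0.137 ± 0.158 in G, 0.617 ± 0.101 in K and 0.203 ± 0.263 in J. The log2 fold change against the middle parent was 3.06 ± 0.32 (SE) in GJ and 3.08 ± 0.32 in KJ.

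Nitab4.5_0004861g0040 had 1.36, 0.85 and 4.76 FPKM in GJ and 2.51, 3.47 and 9.45 FPKM in KJ, while each of the 9 parental libraries lists it at 0. It was the least abundant PR-1 gene of the set, with a mean of 2.32 ± 2.13 FPKM in GJ and 5.14 ± 3.76 in KJ. No fold is given against parents at 0, because the files hold no counts from which a floor could be set. The difference in mean log2(FPKM + 1), which for such a gene depends on the added 1, was 1.55 ± 0.35 (SE) in GJ and 2.45 ± 0.35 in KJ against the middle parent.

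Nitab4.5_0007488g0040 was the most abundant PR-1 gene in the hybrids, with 373, 499 and 560 FPKM in GJ and 219, 319 and 369 FPKM in KJ, against 105, 54.1 and 175 in G, 212, 60.4 and 49.2 in K and 163, 211 and 137 in J. The lowest hybrid library, KJ replicate 1, lay just above K replicate 1 and J replicate 2, so in KJ the separation from the parents was narrow. The mean was 477 ± 95 FPKM in GJ and 302 ± 76.4 in KJ, against 111 ± 60.5 in G, 107 ± 90.7 in K and 171 ± 37.5 in J. By mean FPKM, which is per gene length, it ranked 102 among all 69500 gene models in GJ and 321 in KJ, against 1375 in G, 1421 in K and 806 in J.

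The mean of Nitab4.5_0007488g0040 in GJ was 4.30 times that in G and 2.79 times that in J, and the mean in KJ was 2.82 times that in K and 1.77 times that in J. The log2 fold change against the middle parent was 1.85 ± 0.43 (SE) in GJ and 1.29 ± 0.43 in KJ, and it passed the limits in both. Against J alone it did not pass in either hybrid, at 1.48 ± 0.50 in GJ and 0.81 ± 0.50 in KJ, while it passed against G (2.23 ± 0.50) and against K (1.77 ± 0.50). The call in GJ ended without GJ replicate 3, at 1.73. The call in KJ ended without KJ replicate 2 (1.23), KJ replicate 3 (1.13), K replicate 2 (1.17), K replicate 3 (1.09) or J replicate 3 (1.22), and when the 3 parental libraries that stood apart were omitted at once (1.25).

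Nitab4.5_0001477g0080 had 330, 350 and 388 FPKM in GJ and 215, 273 and 299 FPKM in KJ, against 64.1, 48.5 and 152 in G, 161, 92.1 and 125 in K and 98.9, 122 and 90.9 in J. The 3 GJ libraries lay close together and above every KJ library, while the parental libraries of G spread over a wide range. The mean was 356 ± 29.5 FPKM in GJ and 262 ± 42.9 in KJ, against 88.1 ± 55.7 in G, 126 ± 34.4 in K and 104 ± 16.2 in J. The mean in GJ was 4.04 times that in G and 3.42 times that in J, and the mean in KJ 2.08 times that in K and 2.52 times that in J. The log2 fold change was 1.97 ± 0.29 (SE) in GJ and 1.20 ± 0.29 in KJ against the middle parent, and it passed against each parent in both hybrids.

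The TGA gene Nitab4.5_0004992g0010 had 2.12, 4.97 and 3.0 FPKM in GJ and 1.53, 2.83 and 2.61 FPKM in KJ, against 14.2, 8.49 and 5.55 in G, 5.86, 8.01 and 2.88 in K and 5.94, 5.76 and 5.94 in J. All libraries of a hybrid lay below all libraries of its own parents, although KJ replicate 2 and K replicate 3 differed by little, and the highest library of all was G replicate 1, which stood apart from its replicates over all genes. The mean was 3.36 ± 1.46 FPKM in GJ and 2.32 ± 0.696 in KJ, against 9.40 ± 4.38 in G, 5.58 ± 2.58 in K and 5.88 ± 0.104 in J.

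The log2 fold change of TGA against the middle parent was -0.96 ± 0.30 (SE) in GJ and -0.999 ± 0.30 in KJ, short of the fold limit in both. It was called lower in GJ than in G, by -1.22 ± 0.35, and lower in KJ than in J, by -1.07 ± 0.35, but not in GJ against J (-0.71 ± 0.35) nor in KJ against K (-0.93 ± 0.35). Against the middle parent TGA passed the fold limit in GJ without GJ replicate 2 (-1.22) or G replicate 3 (-1.11), and in KJ without KJ replicate 2 (-1.11), KJ replicate 3 (-1.07), K replicate 3 (-1.17) or J replicate 2 (-1.01). With a pseudocount of 0.1 it passed in both, at -1.15 in GJ and -1.25 in KJ. With a linear middle parent, 6 of 6 members were called in GJ, TGA thus among them, and 5 of 6 in KJ, which were not listed singly. Relative to the median gene of KJ, which was itself lower, the difference in KJ was -0.76.

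The counts that follow were fixed by the choice of the members, and 3 of the PR-1 genes entered the fit only through the hybrid libraries, so nothing is read from them. As a description, 5 of 5 PR-1 genes were called higher than the middle parent in GJ, where 2.40% of the genes tested were, and 5 of 5 in KJ, where 4.18% were. Against single parents, 5 of 5 were higher in GJ than in G (2.39% of genes) and 4 of 5 than in J (1.96%), and 5 of 5 were higher in KJ than in K (3.19%) and 4 of 5 than in J (4.80%). TGA was called against the middle parent in 0 of 2 hybrids, against 2.16% of genes called lower in GJ and 6.61% in KJ. It was called lower in GJ than in G, as 2.44% of genes were, and in KJ than in J, as 7.28% were, but not in KJ than in K, where 6.08% were. Called higher than both parents were 4 of 5 PR-1 genes in GJ (1.27% of genes) and the same 4 in KJ (2.50% of genes), all but Nitab4.5_0007488g0040. All libraries of the hybrid lay above all 6 libraries of its parents for 5 of 5 PR-1 genes in both crosses, as they did for 9.42% of the genes tested in GJ and 9.35% in KJ. The 6 hybrid libraries together lay above all 9 parental libraries for 5 of 5 PR-1 genes and for 2.69% of the genes tested. For TGA the libraries of a hybrid lay below those of its parents in both crosses, as for 13.1% of genes in GJ and 32.8% in KJ. The median log2 fold change of the PR-1 genes against the middle parent was 1.97 in GJ and 2.45 in KJ, beside -0.06 and -0.24 over all genes tested.  Relative to the median gene of KJ the rises there were 4.78, 3.32, 2.69, 1.53 and 1.44 in the order of the genes above.

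**Figure D2:**
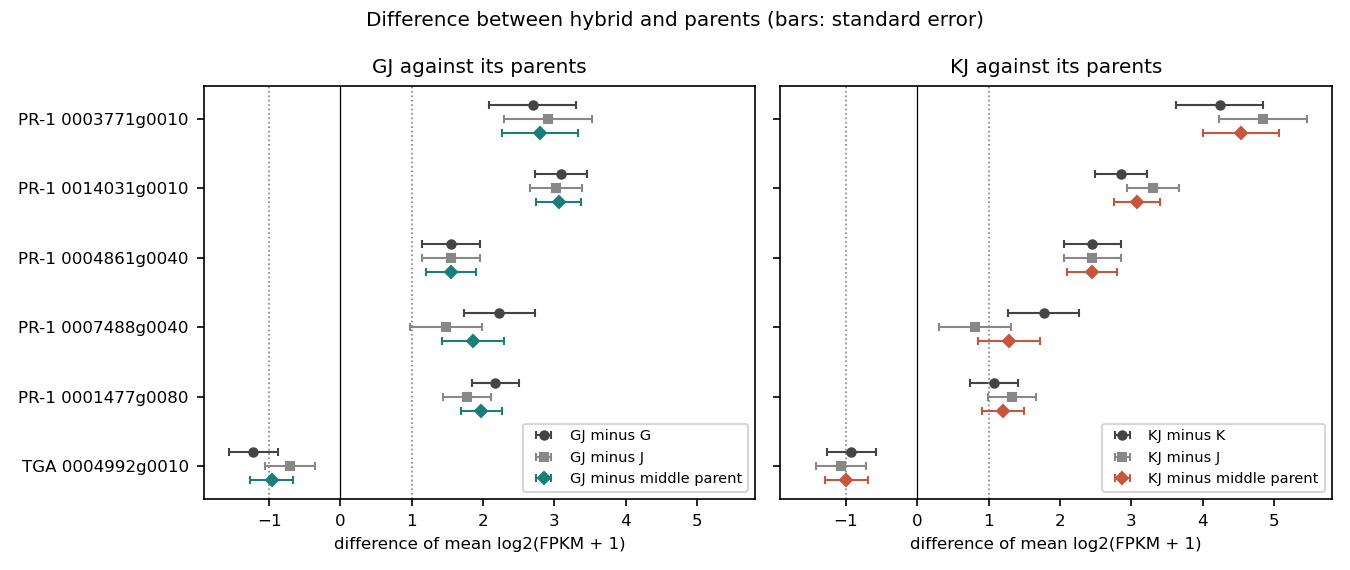
Difference of mean log2(FPKM + 1) between each hybrid and its female parent, its male parent J and its middle parent (horizontal axes), with bars for the standard error and dotted lines at the fold limit of 1 in each direction. Nitab4.5_0003771g0010 differs most in KJ, at 4.54 against the middle parent, and TGA lies near -1 in both hybrids.

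The count of members beyond both parents rested on single libraries in both hybrids. In GJ it was 2 of 6 members without G replicate 2 or without J replicate 1, where Nitab4.5_0003771g0010 and Nitab4.5_0004861g0040 were no longer called. Nitab4.5_0004861g0040 was not called in 7 of the 9 omissions of a GJ, G or J library, namely also without GJ replicate 1 or 3, G replicate 1 or J replicate 2 or 3. In KJ, Nitab4.5_0001477g0080 was not called without KJ replicate 2, KJ replicate 3 or K replicate 2, which left 3 members, and TGA was called besides without K replicate 3, which made 5. With a pseudocount of 0.1 and all libraries kept, TGA was also called lower than both parents in KJ, so that the count was 5 there and 4 in GJ. Omitting at once the 3 parental libraries that stood apart, it was 3 in GJ and 3 in KJ, having lost Nitab4.5_0004861g0040 in GJ and Nitab4.5_0001477g0080 in KJ, and 5 members in GJ and 4 in KJ were then called against the middle parent.

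The hybrids were compared with each other to see whether the PR-1 genes stood higher in one cross, a contrast that did not choose the members. The means of the scarce genes were lower in GJ and those of the abundant genes higher, although the direction of Nitab4.5_0014031g0010 turned without GJ replicate 2 (log2 difference 0.12) or KJ replicate 3 (0.08). GJ had 0.319, 0.793 and 0.452 times the KJ mean of Nitab4.5_0003771g0010, Nitab4.5_0014031g0010 and Nitab4.5_0004861g0040, and 1.58 and 1.36 times the KJ mean of Nitab4.5_0007488g0040 and Nitab4.5_0001477g0080. None of these differences passed the limits, which 0.438% of the genes tested did, and 2 of 6 members had an unadjusted p under 0.05 in the limma fit, as had 20.6% of the genes tested.

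Nitab4.5_0003771g0010 came closest, with a log2 difference of -1.94 ± 0.61 (SE) between GJ and KJ, a 95% confidence interval of -3.28 to -0.61 and an adjusted p of 0.135 in limma (Benjamini-Hochberg). Its GJ and KJ libraries overlapped, because GJ replicate 3, at 27.9 FPKM, lay above KJ replicate 1. Without GJ replicate 3 the difference was -2.79 and passed, with an adjusted p of 0.0311, and over all 13 alternatives the adjusted p was from 0.0311 to 0.372. For Nitab4.5_0004861g0040 the difference was -0.90 (95% confidence interval -1.77 to -0.03, adjusted p = 0.231 in the same limma test).

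For the abundant genes, all 3 GJ libraries of Nitab4.5_0007488g0040, at 373 to 560 FPKM, lay above the KJ libraries, at 219 to 369 FPKM, and so did those of Nitab4.5_0001477g0080. That was the case for 23.8% of the genes tested, so it is common in these libraries. The log2 differences were 0.67 (95% confidence interval -0.42 to 1.76, adjusted p = 0.450) and 0.45 (-0.27 to 1.17, adjusted p = 0.447) in the limma test. The median gene was itself 0.14 higher in GJ, and relative to it they were 0.53 and 0.31. Nitab4.5_0014031g0010 differed by -0.28 (-1.08 to 0.52, adjusted p = 0.683) and TGA by 0.36 (-0.39 to 1.12, adjusted p = 0.559). These intervals leave room for differences beyond the fold limit in all 6 members.

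The departure from the middle parent was also compared between hybrids, which takes account of the difference between G and K. It was 1.74 smaller in GJ for Nitab4.5_0003771g0010 (log2 difference -1.74 ± 0.69 SE, adjusted p = 0.184 in limma) and 0.77 larger for Nitab4.5_0001477g0080 (0.77 ± 0.37 SE, adjusted p = 0.248). For the other members it was -0.02 for Nitab4.5_0014031g0010, -0.90 for Nitab4.5_0004861g0040, 0.56 for Nitab4.5_0007488g0040 and 0.03 for TGA, with adjusted p from 0.259 to 0.982. Of the 6 members 0 were called, beside 0.508% of all genes, and 1 had an unadjusted p under 0.05, as had 21.6% of all genes.

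**Figure D3:**
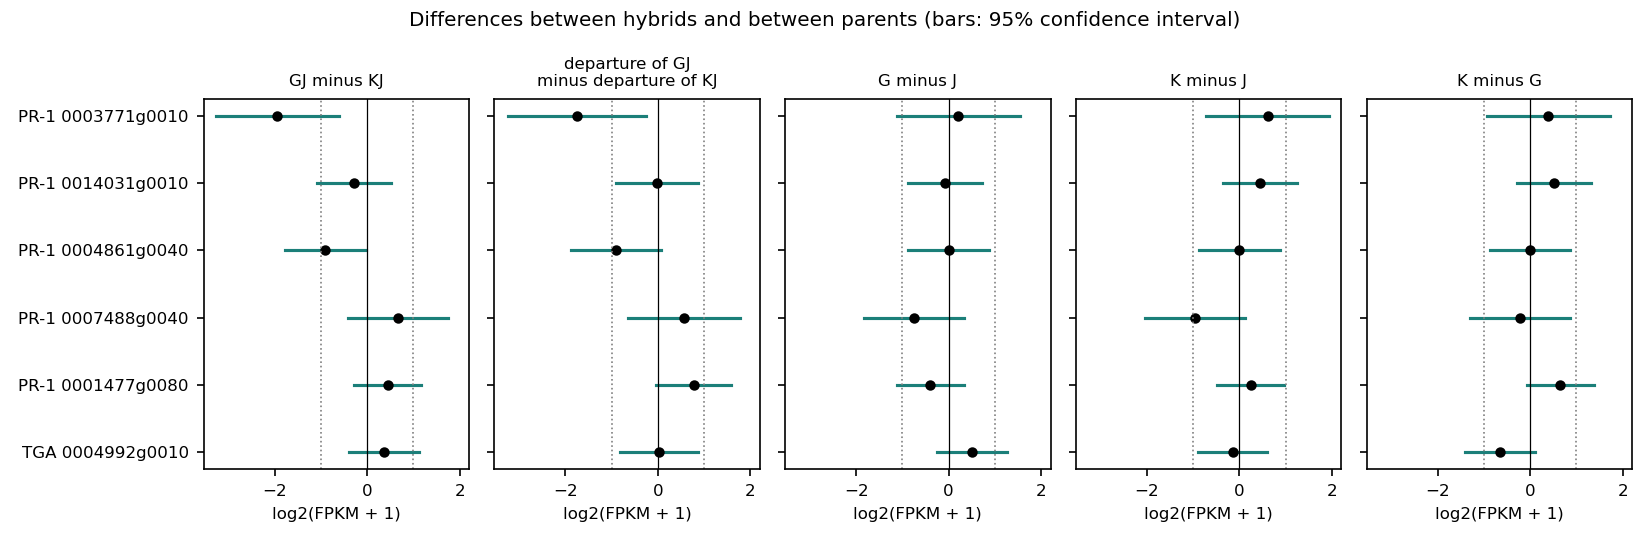
Differences in log2(FPKM + 1) between the hybrids, between their departures from the middle parent and between the parents (horizontal axes), for each member, with bars for the 95% confidence interval and dotted lines at the fold limit of 1. Nitab4.5_0003771g0010 lies at -1.94 between GJ and KJ, and the intervals of all members between parents include 0.

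No difference between parents passed the limits for any member. Between G and J, K and J, and K and G, 0 of 6 members were called in each comparison by limma, where 0.943%, 0.416% and 0.808% of the genes tested were called, and 0 of the 5 PR-1 genes had an unadjusted p under 0.05, against 8.30%, 8.33% and 11.5% of the genes tested. For the 3 scarce genes this says little, since they lay at or near 0 in the parents, and Nitab4.5_0004861g0040, listed at 0 in all 9 parental libraries, could not differ between them. The largest differences were -0.96 ± 0.50 (SE) for Nitab4.5_0007488g0040 between K and J (adjusted p = 0.668 in limma), -0.75 ± 0.50 for the same gene between G and J (adjusted p = 0.850), -0.66 ± 0.35 for TGA between K and G (adjusted p = 0.513) and 0.65 ± 0.33 for Nitab4.5_0001477g0080 between K and G (adjusted p = 0.500). The last passed without G replicate 3, at 1.12 with an adjusted p of 0.0373, and its adjusted p was up to 0.862 over 13 alternatives. Nitab4.5_0014031g0010 had all 3 K libraries, at 0.50 to 0.68 FPKM, above all 3 G libraries, at 0 to 0.31 FPKM, as had 8.15% of the genes tested. All of these values are under 1 FPKM.

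In order of mean level, Nitab4.5_0007488g0040 stood above Nitab4.5_0001477g0080 in GJ, KJ, G and J, whereas in K the order was turned, with 107 and 126 FPKM. The turn came from K replicates 2 and 3, where Nitab4.5_0007488g0040 had 0.656 and 0.394 times the FPKM of Nitab4.5_0001477g0080. In the other 13 libraries this ratio was from 1.02 in KJ replicate 1 to 1.73 in J replicate 2. K replicate 1, at 1.32, thus differed from both of its replicates. The abundant pair made up 95.4% to 98.7% of the summed FPKM of the 5 PR-1 genes in GJ and 87.8% to 94.0% in KJ, against 98.9% to 99.96% in the parents. The sum itself was 719 to 993 FPKM in GJ and 462 to 761 in KJ, against 103 to 373 in the parents. The scarce genes thus had their largest part in the sum of these 5 genes in KJ replicate 3, with 92.7 of 761 FPKM.

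**Figure D4:**
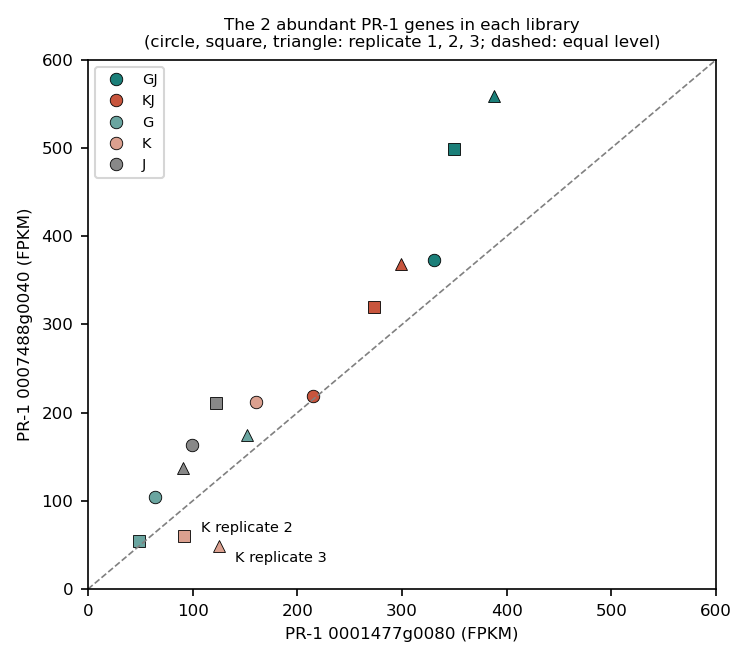
FPKM of Nitab4.5_0007488g0040 (vertical axis) against FPKM of Nitab4.5_0001477g0080 (horizontal axis) in each of the 15 libraries, coloured by genotype, with a dashed line at equal levels. K replicates 2 and 3 are the 2 libraries below the line, and the 6 hybrid libraries lie beyond the 9 parental ones on both axes.

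Within the hybrids, the PR-1 genes of both kinds tended to vary together from library to library, though not all in the same order. In GJ, replicate 3 was the highest library for all 5 PR-1 genes, and in KJ replicate 3 was the highest and replicate 1 the lowest for all 5. The lowest GJ library was replicate 1 for 3 of these genes and replicate 2 for the other 2. In G, K and J no library could be the highest for all 5, because Nitab4.5_0004861g0040 was at 0 in every one. For each library the deviation of log2(FPKM + 1) from the mean of its genotype was taken, which removes the difference between genotypes. Over the 6 hybrid libraries, the deviations of Nitab4.5_0007488g0040 and Nitab4.5_0001477g0080 had r = 0.96, and those of Nitab4.5_0003771g0010 and Nitab4.5_0004861g0040 had r = 0.90. Between a scarce and an abundant member r was 0.54 to 0.82 in these libraries. How many of all genes tested share such an order or such r was not worked out. Nothing particular to PR-1 is therefore read from either.

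Over the 9 parental libraries the abundant pair again deviated together, with r = 0.78. There Nitab4.5_0004861g0040 had no spread, and the other scarce genes stayed at or below 1.22 FPKM. Between those genes and the abundant pair r was -0.28 to 0.17 in the parents. Over all 15 libraries r between a scarce and an abundant member was 0.15 to 0.23. This value mixes hybrid libraries with parental ones where the scarce genes were at or near 0, and no separation of the kinds is read from it. TGA had r of -0.12 to 0.71 with the PR-1 members in the hybrids and of -0.53 to 0.22 in the parents.

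Nitab4.5_0004861g0030, the ID just before Nitab4.5_0004861g0040, is outside the set but appears in the same picture of the study, as another PR-1 gene as far as the picture can be read. It deviated with Nitab4.5_0014031g0010 with r = 0.999 in the hybrids and 0.86 in the parents, where they reached at most 0.60 and 0.68 FPKM. Whether such pairs share reads of similar copies was not tested. These correlations describe 6 libraries of 2 genotypes and 9 libraries of 3 genotypes, and the split was made after the values were seen.

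**Figure D5:**
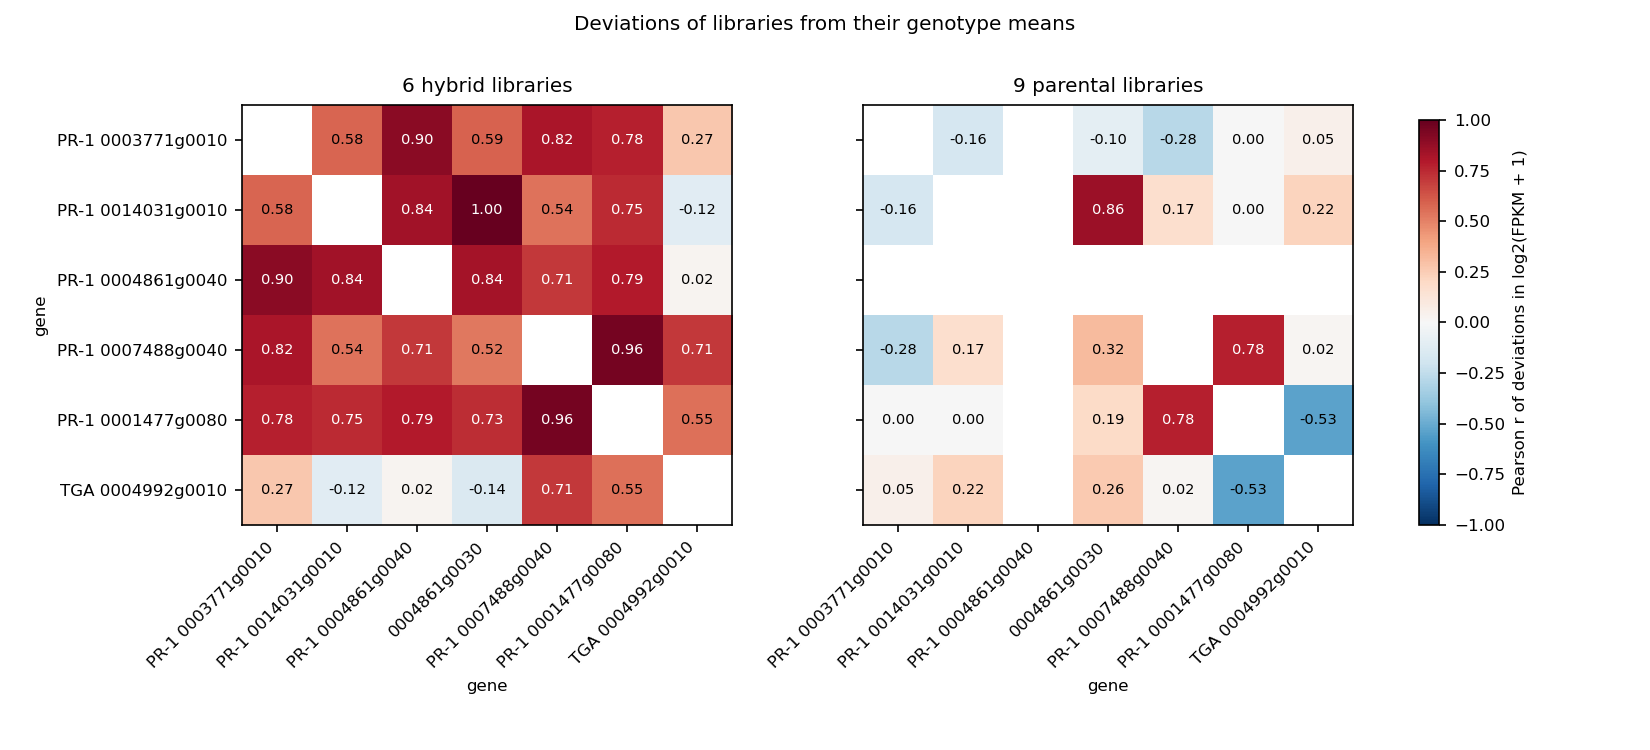
Pearson r between the members, and between each of them and Nitab4.5_0004861g0030, over deviations of libraries from their genotype means in log2(FPKM + 1), for the 6 hybrid libraries (left) and the 9 parental libraries (right). Red marks positive and blue negative r. Cells without a number are those of a gene against itself and, in the parents, those of Nitab4.5_0004861g0040, which has no spread there. In the hybrids all PR-1 pairs are positive, with 0.54 to 0.82 between a scarce and an abundant member, and in the parents the abundant pair has 0.78.

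Over the 15 libraries as a whole, the 2 tested genes most like each member were sought by Pearson r of log2(FPKM + 1), a measure that mostly follows the difference between hybrids and parents. For Nitab4.5_0003771g0010 they were Nitab4.5_0004861g0040 (0.97) and Nitab4.5_0002485g0030 (0.95), and for Nitab4.5_0004861g0040 they were Nitab4.5_0000562g0100 (0.97) and Nitab4.5_0003771g0010 (0.97). For Nitab4.5_0014031g0010 they were Nitab4.5_0004861g0030 (0.99) and Nitab4.5_0011108g0010 (0.98). Out of 37231 genes, Nitab4.5_0003771g0010 and Nitab4.5_0004861g0040 were thus among each other's nearest. Both were chosen for their rise in the hybrids, which this r mostly follows, so no likeness beyond that rise is read from the rank. Nitab4.5_0004861g0030 had 7.88, 3.16 and 9.35 FPKM in GJ and 5.16, 10.4 and 15.5 FPKM in KJ, against at most 0.60 FPKM in any parental library.

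The abundant genes had other nearest genes. For Nitab4.5_0007488g0040 they were Nitab4.5_0003604g0050 (0.92) and Nitab4.5_0008572g0020 (0.89), with Nitab4.5_0001477g0080 at rank 17. For Nitab4.5_0001477g0080 they were Nitab4.5_0003324g0100 (0.97) and Nitab4.5_0002314g0100 (0.97), with Nitab4.5_0007488g0040 at rank 450. Nitab4.5_0003324g0100, for which no annotation is at hand, had 759, 945 and 1063 FPKM in GJ and 432, 562 and 587 FPKM in KJ, against 53.6 to 257 FPKM in the parents. For TGA the nearest genes were Nitab4.5_0000871g0020 (0.96) and Nitab4.5_0012712g0030 (0.95).

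Genes that share the first ID number with a member, and so a stretch of the assembly, were looked at to see whether whole neighbourhoods changed. Of all genes tested, 2.40% were called higher and 2.16% lower than the middle parent in GJ, and 4.18% and 6.61% in KJ. The counts of neighbours that follow are too small to be told from these shares. Of 5 such genes tested beside Nitab4.5_0003771g0010, only Nitab4.5_0003771g0060 rose, with a log2 fold change against the middle parent of 1.44 ± 0.27 (SE) in GJ (adjusted p = 0.00492 in limma) and 1.09 ± 0.27 in KJ (adjusted p = 0.00715). The gene next to the member, Nitab4.5_0003771g0020, had 1.00 to 1.59 FPKM in GJ and 0.62 to 1.06 FPKM in KJ, against 0.60 to 3.68 FPKM in the parents, and was not called. Beside Nitab4.5_0004861g0040, 1 of 2 genes tested was called higher in each hybrid, and this was Nitab4.5_0004861g0030, with 2.54 ± 0.31 (SE) in GJ and 2.94 ± 0.31 in KJ. Being at most 0.60 FPKM in the parents and shown in the study's picture of overdominant genes, it is no independent sign of a change of the neighbourhood. Beside Nitab4.5_0007488g0040 and beside TGA, 0 of 2 genes tested were called in either hybrid.

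Beside Nitab4.5_0001477g0080, 15 genes were tested and a single gene was called in each hybrid. The adjacent Nitab4.5_0001477g0070 had 293, 478 and 491 FPKM in GJ and 142, 256 and 324 FPKM in KJ, against 108 to 267 FPKM in the parents. It was called against the middle parent in GJ, at 1.28 ± 0.32 (SE, adjusted p = 0.0173 in limma), and not in KJ, at 0.27 ± 0.32 (adjusted p = 0.507), and its difference between GJ and KJ was 0.84 ± 0.37 (adjusted p = 0.228). Nitab4.5_0001477g0140 was called lower in KJ, at -1.39 ± 0.13 (adjusted p = 5.95e-05 in limma). In GJ it was just short of the fold limit, at -0.96 ± 0.13 (adjusted p = 0.000916), and its difference between GJ and KJ was not called (0.46 ± 0.15, adjusted p = 0.145). Other genes of this stretch had an adjusted p under 0.05 in limma without reaching the fold limit, in both directions. Examples are Nitab4.5_0001477g0060, at -0.61 in GJ and -0.83 in KJ, and Nitab4.5_0001477g0180, at 0.82 in GJ. The neighbouring genes named here, other than those with the ID next to a member, were named after their values were seen. No other gene shares the first ID number of Nitab4.5_0014031g0010.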

How the data were processed

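Total RNA of seedling roots was sequenced as paired reads from 15 libraries. The authors removed short and low-quality reads, aligned what was left to the genome of K326, and quantified genes with RSEM. The paper names Tophat2 for mapping, whereas the labels list HISAT2 and StringTie, and versions are not given in the sources used here. The deposited values are FPKM with 2 decimals, without counts, so depth per gene and counting error are unknown.

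Values were taken as log2(FPKM + 1). The added 1 makes fold changes of scarce genes smaller than their ratios of FPKM. Genotype means of all 15 libraries entered 1 linear model in limma (version 3.58.1, R version 4.3.3) (trend and robust options, no covariate), tested two-sided in 11 comparisons and adjusted by Benjamini-Hochberg over all genes tested in each. The middle parent averages the log2 means of the 2 parents. The fit was also tried on simulated data, with changes set in GJ alone and in genes of a higher mean level than the scarce PR-1 genes and TGA. It therefore says nothing of calls at the levels of those members. Plots used matplotlib 3.10.9 in Python 3.11.15.

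The members, the neighbouring IDs and the nearest genes by Pearson r were named by rule. Members, lists and alternatives were chosen with earlier results of these data known. The study's DESeq2 test was not run, since it needs counts. Annotations to PR-1 and TGA came with the list of IDs. No sequence is shown, because no table used here pairs these IDs with sequences. Alternatives were a pseudocount of 0.1, other filters on low values, median-of-ratios and quantile scaling, an unadjusted p, no fold limit, a linear middle parent, a fit of the compared genotypes alone, plain limma moderation, a replicate block and leaving out libraries.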

Additional observations from a re-analysis of the deposited data

How the results depend on the processing

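Of 173 counts of called members under alternative settings 163 stayed within 1.5 times the value given, and of 618 single fold changes 601 stayed on their side of the limits, with 0 changes of sign among called values. These totals overstate how stable the calls were. Many of the counts were 0 throughout, and a fall from 4 to 3 members lies within 1.5 times. The fold changes of Nitab4.5_0004861g0040 between parents could only be 0. With a mean of at least 5 FPKM as the filter, 4 of 6 members were tested, and 3 were called against the middle parent in GJ and 3 in KJ, and 2 against both parents in GJ and 2 in KJ. With an unadjusted p, 1 member was called between GJ and KJ and 1 in the difference of departures. Leaving out each replicate of the genotypes compared in turn gave 2 to 4 members called against both parents in GJ, 3 to 5 in KJ, 0 to 1 between GJ and KJ and 0 to 1 between K and G. The titles number the replicates, and the paper does not say whether libraries of the same number were handled together. Deviations from genotype means correlated with a median r of -0.03 for libraries of the same number and 0.01 for others, and 3 of 15 libraries correlated best with their own number. With a replicate block 5 members were called against the middle parent in GJ and 5 in KJ, 4 against both parents in each hybrid and 0 between hybrids. Low FPKM with 2 decimals and 3 libraries per genotype limit what can be said of the scarce genes in the parents. Shares of the PR-1 sum over a longer list of PR-1 genes were planned and not run, because further PR-1 IDs could be had only from a picture. The split of libraries in the correlation of deviations was chosen after seeing the data.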
